A study of Mus musculus and Mus musculus
Oryx dammah with 30 samples.

Results

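Mouse protein-coding genes named Zfp and a number were followed through nuclear transfer (NT) embryos. Of 366 such genes in the table of four-cell embryos that had received C2C12 cells, 157 were selected on an FPKM of at least 1 in 3 or more of the 6 libraries. FPKM counts the sequenced fragments of a gene, divided by the length of its exons and by the size of the library. Zfp42, Zfp57, Zfp281 and Zfp352 were left out, and the other 153 genes were analysed, out of 53023 genes in the table. Because the 6 four-cell libraries chose the genes, values from these libraries are given as a description without a test. Tests were made in the two-cell and the DNA replication experiments, whose values the choice did not use.

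C2C12 is a mouse myoblast line from the C3H strain. The recipient embryos were made by in vitro fertilization from C57BL/6 oocytes and DBA/2 sperm, and were held at G2/M with 0.1 μg/mL demecolcine, which all groups received. Whole NT embryos were pooled, so each library holds RNA of the embryo together with RNA of the transferred cells, and α-amanitin, an inhibitor of Pol II (RNA polymerase II), lowers RNA that is newly made. The four-cell experiment had 3 libraries without and 3 with α-amanitin, each from a pool of 3 embryos, with NT at 46 hours post insemination (hpi) and culture for 24 h. The four-cell libraries taken as without α-amanitin are named PBS, and were placed in that group because the other 3 libraries of the table are named for amanitin. The two-cell experiment had 6 libraries without and 6 with α-amanitin, each from 5 embryos, with NT at 21 hpi (early two-cell) or 30 hpi (late two-cell). Its library names give α-amanitin but not the stage: 3 libraries named NT go with 3 named Am, and 3 named R with 3 named RAm. Each of these pairs of groups was therefore also analysed alone, without assigning it to a stage. The replication experiment had 3 libraries of group D and 3 of group DR, each from 4 four-cell embryos without α-amanitin, with NT before or after DNA replication. The names do not say which group is which.

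Zfp genes encode C2H2 zinc finger proteins, in which each finger, a short fold around a zinc ion, reads a few bases of DNA and arrays of fingers read longer sites. Many also carry a KRAB domain, which binds Trim28 and through it the H3K9 methyltransferase Setdb1 and HP1 proteins, and so silences retroelements, imprinted regions and other targets in embryos. KRAB zinc finger genes multiplied by local duplication, so they lie in clusters and have close relatives. A smaller number of Zfp proteins have no KRAB domain and act as transcription activators or in ribosome assembly, splicing, ubiquitination and the spindle.

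In the longest open reading frame of each gene's GENCODE vM21 transcripts, the 153 genes had a median of 11 C2H2 fingers (0 to 30), and the 209 Zfp genes below the expression threshold also had a median of 11. A KRAB A-box pattern was found in 92 of the 153 genes (60.1%) and in 98 of those 209 (46.9%). Within clusters, defined as at least 4 Zfp genes with gaps of at most 500 kb, the pattern was in 70 of 84 expressed genes, and outside clusters in 22 of 69. Of the 153 genes, 38 had more than 10% of their 50-base words in the transcripts of another gene, and 13 had more than 50%, so reads of these genes may be split between relatives.

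Promoter sequences of RefSeq on GRCm38.p6 were found for 128 of the 153 genes. In the 250 bases before the start site, the letters CCAAT were present on either strand in 57.0% of them and in 34.5% of all 27025 promoters, and the GC box GGGCGG was present in 47.7% and 32.9%. TATAAA was present in 3.91% against 13.0% of all promoters, GGATTA, the core read by OTX and OBOX homeodomain proteins, in 8.59% against 6.38%, and the palindromic NRF1 core in 2.34% against 0.781%. In a cluster on chromosome 4 the reverse of CCAAT and the GC box overlapped as ATTGGGCGG. These 9 letters were found in 7 of the 8 cluster genes with a promoter entry (not in Zfp534), in 1 of the 120 other promoters (Zfp947) and in 0.255% of all promoters. The 7 stretches are shown lined up on these letters, in capitals, because these genes lie in the cluster whose two-cell values are described below.
Zfp982, chr4:147492314-147492392, plus strand: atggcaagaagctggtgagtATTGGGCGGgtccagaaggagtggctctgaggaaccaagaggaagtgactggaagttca
Zfp979, chr4:147642523-147642601, minus strand: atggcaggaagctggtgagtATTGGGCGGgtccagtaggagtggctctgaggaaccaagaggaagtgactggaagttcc
Zfp600, chr4:146156740-146156818, plus strand: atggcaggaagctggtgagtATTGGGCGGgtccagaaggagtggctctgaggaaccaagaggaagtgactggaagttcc
Zfp985, chr4:147553189-147553267, plus strand: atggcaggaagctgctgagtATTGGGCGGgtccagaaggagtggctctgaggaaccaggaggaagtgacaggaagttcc
Zfp988, chr4:147305538-147305616, plus strand: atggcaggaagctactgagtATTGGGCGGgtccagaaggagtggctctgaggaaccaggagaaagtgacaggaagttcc
Zfp981, chr4:146514805-146514883, plus strand: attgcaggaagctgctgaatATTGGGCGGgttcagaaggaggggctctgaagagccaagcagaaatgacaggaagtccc
Zfp984, chr4:147809816-147809894, minus strand: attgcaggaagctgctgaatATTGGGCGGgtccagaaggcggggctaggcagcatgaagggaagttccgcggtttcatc

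Over the 79 bases shown, Zfp600 had the same base as Zfp982 at 77 positions, Zfp979 at 76, Zfp985 at 74, Zfp988 at 72, Zfp981 at 65 and Zfp984 at 51. The 9 letters began 46 (Zfp988) to 95 (Zfp981) bases before the annotated start. The 3 genes with the largest two-cell differences, described below, had other promoters, shown here for the 100 bases before the start with GC boxes and CCAAT boxes of either strand in capitals.
Zfp622, chr15:25984266-25984365, plus strand: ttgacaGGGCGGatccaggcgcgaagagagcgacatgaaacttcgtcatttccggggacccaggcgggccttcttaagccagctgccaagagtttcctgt
Zfp296, chr7:19577187-19577286, plus strand: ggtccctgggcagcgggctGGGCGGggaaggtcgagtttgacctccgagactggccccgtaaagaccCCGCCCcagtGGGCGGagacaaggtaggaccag
Zfp809, chr9:22225612-22225711, plus strand: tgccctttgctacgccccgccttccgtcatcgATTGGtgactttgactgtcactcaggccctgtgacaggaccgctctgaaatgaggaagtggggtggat

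Between 1136771 and 3101002 reads per four-cell library were counted on genes, and about 4712269 to 10503760 per two-cell library and 2603950 to 19181340 per replication library, where values are not whole reads and depth is an estimate. Spike-in RNA took 2.38% to 6.26% of two-cell reads without α-amanitin and 6.54% to 11.3% with it, and the gene with most reads in each two-cell library took 3.56% to 7.50% and 9.35% to 21.6%. Mitochondrial transcripts took 5.76% to 6.09% of four-cell reads without and 11.4% to 19.0% with α-amanitin. FPKM are shares of a library, so these differences touch every value below. The oocyte and embryo list (12 genes) was above 0 in every group for all genes found, with a summed FPKM of 7455 to 9120 in the R libraries and 1671 to 3441 in RAm, and 8482 to 12353 in NT and 6939.6 to 8106 in Am. In the four-cell libraries its sum was 8732 to 9933 without and 12212 to 16128 with α-amanitin, and in the replication libraries 4578 to 5739.5 in D and 3388 to 4044 in DR. Of the myoblast list, 13 to 16 of 16 genes were above 0 in each group. The summed FPKM of the myoblast list was 148 to 502 in the R libraries and 1107 to 1468 in RAm, and 908 to 4212 in NT and 2097 to 2262 in Am, while in the four-cell libraries it was 207 to 598 without and 184 to 1984 with α-amanitin, and in the replication libraries 399.8 to 480.4 in D and 207 to 373 in DR. The part of both lists in the results was not tested. In pooled embryos, fewer cells of a type and less RNA per cell cannot be told apart.

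In the four-cell libraries that chose them, the 153 genes had a median FPKM of 3.96 over the 6 libraries (0.839 to 372). 36 genes averaged at least 10, and 3 at least 50. Zfp706 was the highest, with 485, 470.4 and 554 without and 278, 248 and 196 with α-amanitin. It was followed by Zfp958, Zfp207, a microtubule-binding partner of Bub3 at the kinetochore, Zfp820, Zfp932, which silences endogenous retroviruses of the ERVK class, Zfp936, Zfp143, an activator of promoters of small nuclear RNA and housekeeping genes, Zfp51, Zfp977 and Zfp472. Their order is not that of a steady level: Zfp958 had 237, 114 and 92.5 without and 2.18, 4.47 and 5.06 with α-amanitin, while Zfp207 had 60.6, 74.0 and 59.9 without and 55.1, 47.6 and 59.7 with it. Zfp958 was therefore second in the order through the libraries without α-amanitin. Just inside the threshold were Zfp605, Zfp493 and Zfp12, with the third highest FPKM at 1.01, 1.01 and 1.03, and just outside Zfp397, Zfp248 and Zfp992, with 0.992, 0.976 and 0.967.

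In these libraries 145 of the 153 genes stood higher without α-amanitin (94.8%, all genes 66.8%). The median difference, on the log2(FPKM + 1) scale used throughout, was 1.48 against 0.37 over all 9884 genes that passed the threshold. 47 genes were at least 4-fold higher (7.21% of all genes), and in 105 the groups did not overlap and the values without α-amanitin were above (27.6% of all genes), while none lay below in this way (7.56% of all genes). The choice of genes used these libraries: 33 of the 153 passed only through the 3 libraries without α-amanitin and none only through those with it, and 39 had an FPKM of at least 1 in all 6. The counts are therefore a description only. Between 16 and 52 of the genes had no read in a library with α-amanitin, and 0 or 1 in a library without it. Zfp472 had 94.8, 26.2 and 27.2 without and no read in any library with α-amanitin, and Zfp54 had 15.8, 8.11 and 10.4 and likewise no read with it.

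**Figure D1:**
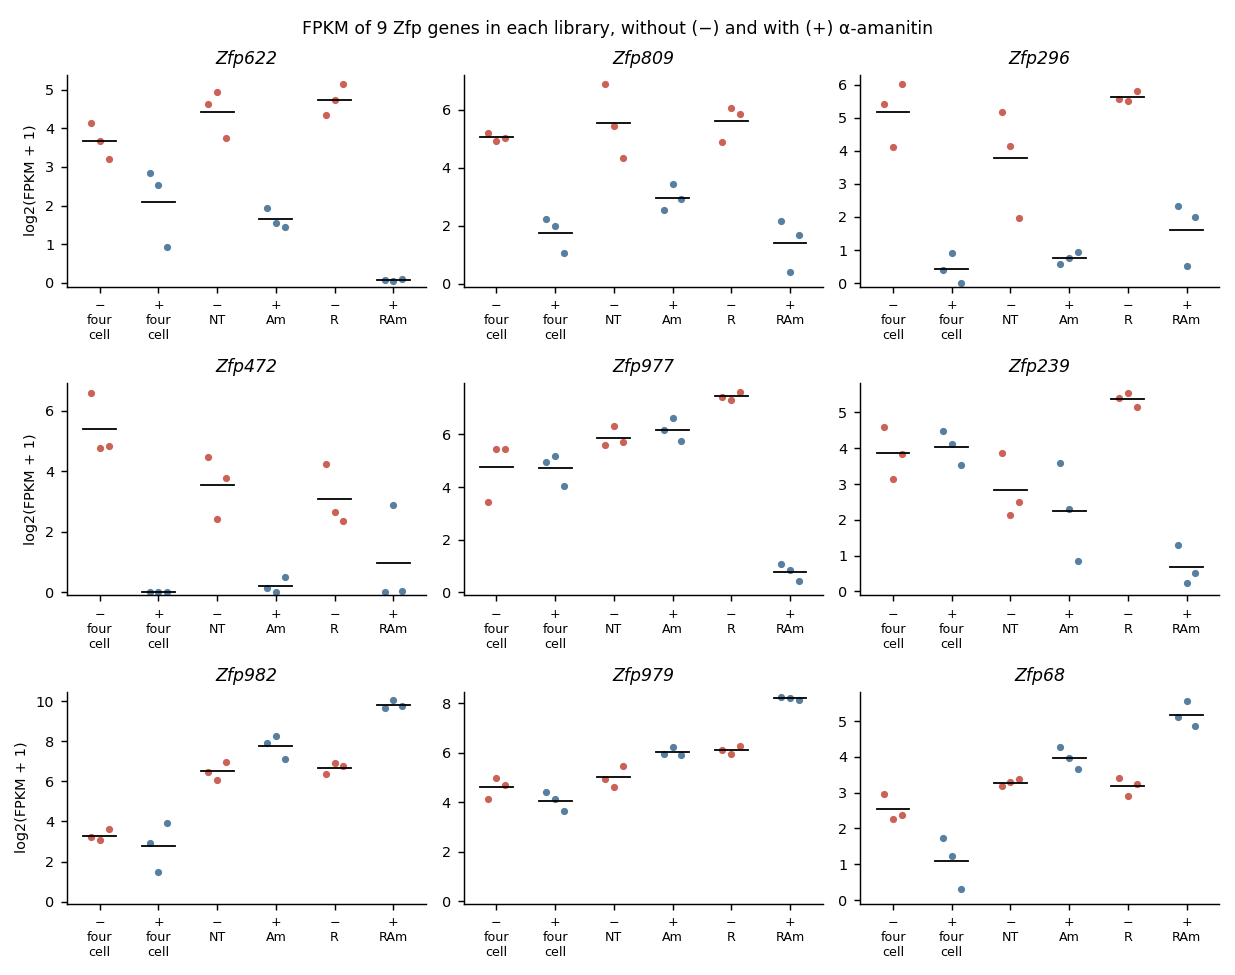
Each point is the log2(FPKM + 1) of 1 gene in 1 library, without (−, red) and with (+, blue) α-amanitin, in the four-cell libraries and in the 4 groups of two-cell libraries (NT, Am, R, RAm); bars are means of 3 libraries. Zfp622, Zfp809 and Zfp296 were lower with α-amanitin in both sets of two-cell libraries, Zfp977 and Zfp239 were called lower in RAm against R but not in Am against NT, and in both sets of two-cell libraries Zfp982, Zfp979 and Zfp68 had higher means with it.

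The two-cell experiment asks which RNA depended on Pol II in embryos at an earlier stage. Over the 12 libraries, 81 of the 153 Zfp genes (52.9%) were higher without α-amanitin at an adjusted p under 0.05 (limma, Benjamini-Hochberg), against 46.7% of the 9833 genes fitted. 9 genes (5.88%) were lower, against 5.81%. Both criteria of the study, an adjusted p under 0.05 and a 4-fold change, were met by 25 genes in the higher direction (16.3%, all genes 14.8%) and by 1 in the lower direction (0.654%, all genes 0.946%). The paper states these criteria for DESeq2 with spike-in normalisation, while here they were applied to limma on FPKM without spike-in scaling. The median difference was 0.87 for the Zfp genes and 0.87 for all genes, and 123 of 153 (80.4%) were higher against 80.5%. The Zfp genes stood close to the background in these counts. Of the 33 genes that had passed the threshold only without α-amanitin at the four-cell stage, 20 were called higher at this adjusted p in the two-cell libraries, with a median difference of 0.89, beside 61 of the other 120 and a median of 0.87 (all genes 46.7% and 0.87). The groups of 6 did not overlap in 30 genes that were higher (19.6%, all genes 19.4%) and 2 that were lower (1.31%, all genes 2.48%).

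With median-of-ratios scaling the median of all genes was 0.36 in place of 0.87, and 46 Zfp genes were higher (all genes 26.6%) and 17 lower (12%). With spike-in scaling 126 were higher (all genes 81.4%) and none lower in this limma fit (all genes 0.478%). The number past both criteria in the higher direction was 11 with median-of-ratios scaling (7.19%, all genes 6.27%), 62 with spike-in scaling (40.5%, all genes 44.8%) and 57 with a pseudocount of 0.1 in place of 1 (37.3%, all genes 28.8%). Differences below are of FPKM as deposited.

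**Figure D2:**
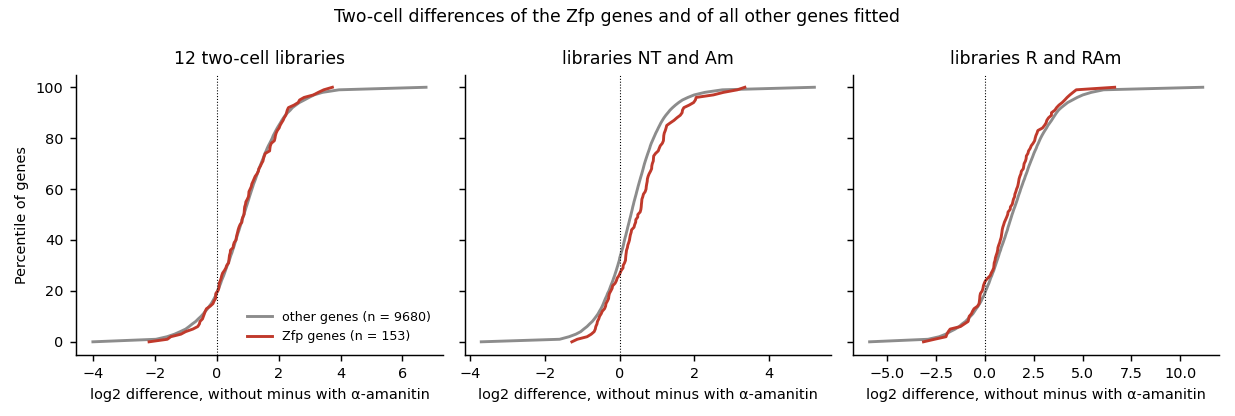
Curves give, for each log2 difference (x axis, without minus with α-amanitin), the percentile of genes at or below it, for the 153 Zfp genes (red) and the 9680 other genes (grey), over 12 libraries, in NT and Am, and in R and RAm. Over the 12 libraries the curves lie close together, with medians of 0.87, while the Zfp curve lies to the right in NT and Am (medians of 0.48 for the Zfp genes and 0.30 for all genes) and mostly to the left in R and RAm (1.17 and 1.39).

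Zfp622, a factor in the maturation of the large ribosomal subunit, had the largest difference, 3.73 ± 0.41 (SE; 6 libraries per group; adjusted p = 7.33e-05). Its FPKM were 23.7, 29.6 and 12.4 in NT and 25.7, 34.3 and 19.5 in R without α-amanitin, against 2.86, 1.92 and 1.73 in Am and 0.0445, 0.0318 and 0.0602 in RAm. Every library without α-amanitin was above every library with it. Zfp296, a zinc finger protein of embryonic stem cells that works with Klf4, had 35.4, 16.7 and 2.94 in NT and 44.5, 55.5 and 46.1 in R, against 0.502, 0.684 and 0.927 in Am and 4.00, 0.447 and 2.96 in RAm, a difference of 3.51 ± 0.61 (adjusted p = 0.00101). The lowest NT library lay below the 2 highest RAm libraries, so the groups of 6 overlapped, while within each set they did not. Zfp809, which recruits Trim28 to the primer binding site of murine leukemia virus, had 117, 42.5 and 19.2 in NT and 65.6, 57.0 and 28.9 in R, against 4.77, 9.71 and 6.57 in Am and 3.43, 0.314 and 2.18 in RAm. Its difference was 3.40 ± 0.53 (adjusted p = 0.000590), and the groups did not overlap. In the four-cell libraries, which chose the genes, these 3 genes had differences of 1.58, 4.75 and 3.29, given as a description. Zfp296 was among the 33 genes that passed the threshold only without α-amanitin, so its four-cell direction was fixed by the choice.

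Zfp821 (3.28 ± 0.49), Zfp707 (3.08 ± 0.46) and Zfp637 (2.63 ± 0.46) also separated all 6 libraries without from all 6 with α-amanitin, as did Zfp830, a nuclear protein needed by early embryos and part of the splicing machinery (2.82 ± 0.45). Zfp830 had 17.7, 12.3 and 9.03 in NT and 15.6, 19.4 and 23.4 in R, against 1.87, 4.11 and 3.72 in Am and 0, 1.35 and 0 in RAm. The adjusted p of these 4 genes lay between 0.000438 and 0.00102. Zfp830 was also called in NT and Am alone (1.72, adjusted p = 0.0278), while Zfp821 (2.05, adjusted p = 0.0545), Zfp707 (1.81, adjusted p = 0.0567) and Zfp637 (1.68, adjusted p = 0.108) were not. Zfp472, the gene with the largest four-cell difference, had 21.3, 4.28 and 12.8 in NT and 5.28, 4.15 and 17.9 in R, against 0.0853, 0 and 0.408 in Am and 0, 6.37 and 0.0287 in RAm (2.73 ± 0.55, adjusted p = 0.00228). A single library, RAm2, was above 3 of the libraries without α-amanitin. With NT and Am alone its difference was 3.35 (adjusted p = 0.0135), and with R and RAm alone 2.11 (adjusted p = 0.0651).

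The 2 sets of two-cell libraries differed. In R and RAm 92 Zfp genes were higher without α-amanitin (60.1%, all genes 63.9%) and 16 lower (10.5%, all genes 9.23%), with a median difference of 1.17 against 1.39 for all genes. In NT and Am 14 were higher (9.15%, all genes 10.7%) and 2 lower (1.31%, all genes 2.47%), with a median of 0.48 against 0.30. Of these 14, 10 were also called higher in R and RAm, and both lower genes were called lower there. The difference between the sets was tested in limma as the interaction of set and α-amanitin. It was called in 59 Zfp genes (38.6%, all genes 50%), of which 46 had the more positive difference in R and RAm and 13 in NT and Am. Over all genes the split was 4417 and 503. Set, stage and library batch cannot be told apart here.

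Zfp977 had the largest difference between the sets. Without α-amanitin it had 47.7, 79.7 and 50.9 in NT and 156, 192 and 172 in R, and with it 70.3, 98.2 and 52.5 in Am and 1.14, 0.787 and 0.363 in RAm. The NT and Am libraries overlapped, while R and RAm were far apart, so that the difference in R and RAm exceeded that in NT and Am by 6.94 (adjusted p = 2.82e-07). Its value over 12 libraries, 3.17 ± 1.09 (adjusted p = 0.0268), rests on R and RAm alone. In the four-cell libraries it had 9.86, 42.6 and 42.5 without and 29.7, 35.2 and 15.5 with α-amanitin, again overlapping. Zfp239 was similar, with 13.6, 3.38 and 4.68 in NT, 11.0, 3.93 and 0.814 in Am, 46.0, 34.3 and 41.3 in R and 1.48, 0.182 and 0.426 in RAm (interaction 4.09, adjusted p = 0.00211). Zfp410, known for activating Chd4, had 11.4, 12.2 and 8.25 in NT and 20.3, 11.4 and 8.90 in Am, but 13.7, 13.3 and 13.2 in R and 1.13, 1.27 and 1.47 in RAm (interaction 2.92, adjusted p = 0.000132). Zfp51 went the other way. It had 206, 55.3 and 31.2 in NT and 5.99, 5.29 and 7.84 in Am, against 23.5, 57.9 and 30.7 in R and 23.5, 37.2 and 7.12 in RAm (interaction −2.44, adjusted p = 0.0456), and was called in NT and Am (3.31, adjusted p = 0.0197) but not in R and RAm (0.86, adjusted p = 0.235).

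**Figure D3:**
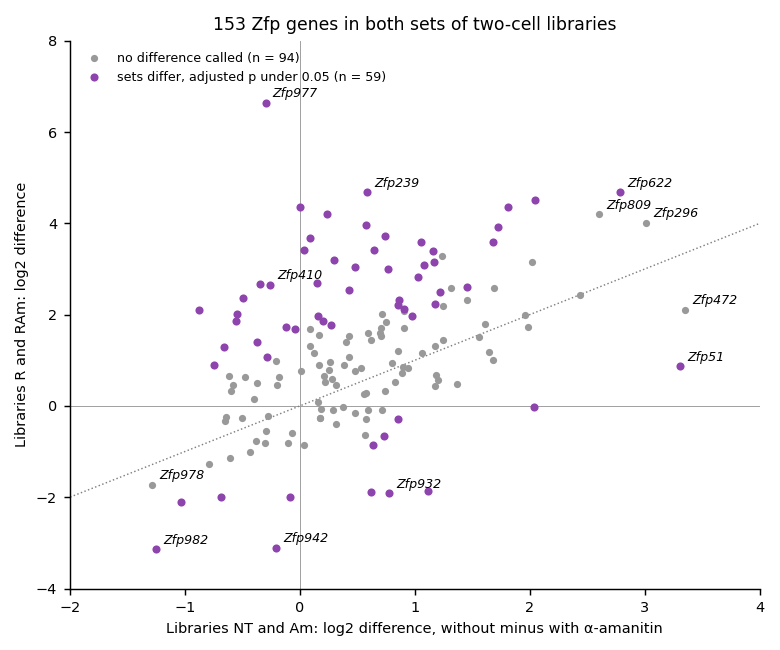
Each point is 1 of the 153 Zfp genes, with its log2 difference (without minus with α-amanitin) in NT and Am on the x axis and in R and RAm on the y axis; purple points are the 59 genes whose differences were called different between the sets, and the dotted line marks equal differences. Zfp977 stands at 6.65 in R and RAm and −0.30 in NT and Am, and Zfp982 and Zfp942 lie lowest.

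The 9 genes called lower without α-amanitin over the 12 libraries were Zfp982, Zfp942, Zfp979, Zfp978, Zfp68, Zfp277, Zfp84, Zfp329 and Zfp326. Zfp982 was the only one past 4-fold, with a difference of −2.20 ± 0.50 (adjusted p = 0.00453). It had 89.1, 66.5 and 125 in NT and 121, 107 and 81.2 in R without α-amanitin, against 237, 308 and 140 in Am and 819.9, 1062 and 861 in RAm. All 6 libraries with α-amanitin were above all 6 without it, and the difference was larger in R and RAm (−3.14) than in NT and Am (−1.25) by 1.89 (adjusted p = 0.00322). In NT and Am alone Zfp982 was not called. In the four-cell libraries it had 8.26, 7.35 and 11.2 without and 6.50, 1.77 and 14.4 with α-amanitin, which overlap. With spike-in scaling its two-cell difference was −0.79 and was not called (adjusted p = 0.175). Zfp978 (34.6, 28.3 and 53.1 in NT, 92.2, 121 and 70.6 in Am, 93.5, 106 and 105 in R, 354, 338 and 319 in RAm) and Zfp979 (30.0, 23.5 and 43.3 in NT, 61.4, 74.9 and 59.8 in Am, 60.3, 75.4 and 68.2 in R, 301, 297 and 282 in RAm) showed the same order within each set, and were the 2 genes called lower in both sets. Without RAm1, RAm2 or RAm3, Zfp978, Zfp979 and Zfp942 were not called over the remaining libraries, nor were Zfp978 and Zfp979 without NT1 or NT2. Zfp277 was not called in 14 of 23 alternatives, among them leaving out any single RAm, NT or R library, and Zfp326 was not called without RAm2, r1 or r2 (r1 and r2 are libraries of R). With spike-in scaling none of the 9 genes was called lower (limma).

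Zfp982, Zfp978 and Zfp979 lie together in the chromosome 4 cluster (chr4:145510759-147848366 on mm10), which holds 18 Zfp genes, 12 of them expressed and all 12 with the KRAB pattern. The median difference of its 12 genes was −0.06 over the 12 two-cell libraries, −0.61 in NT and Am and 0.01 in R and RAm, where all genes had 0.87, 0.30 and 1.39. With median-of-ratios scaling the 12-library median was −0.81 (all genes 0.36) and with spike-in scaling 1.20 (all genes 1.84), so its sign depends on the scaling. None of the 12 was called higher over the 12 libraries and 3 were called lower (all genes 46.7% and 5.81%), while 0 were called higher and 6 lower with median-of-ratios scaling (all genes 26.6% and 12%), and 7 higher and 0 lower with spike-in scaling (all genes 81.4% and 0.478%; limma; in each of these fits the same number of genes had an unadjusted p under 0.05). In NT and Am 9 of the 12 values were below 0. In R and RAm 4 genes were called lower (the same 3 and Zfp600) and 4 higher (Zfp981, Zfp986, Zfp988 and Zfp989), where 9.23% and 63.9% of all genes were called. Thus Zfp600, with 40.9, 46.0 and 42.5 in R and 91.1, 83.3 and 89.1 in RAm, and Zfp988, with 25.0, 49.5 and 26.6 in R and 13.8, 13.7 and 10.2 in RAm, differed in direction. These 2 genes had 81.2% and 68.1% of their 50-base words in another gene. A link between promoter sequence and direction was not tested. The 12 genes had a median of 61.2% of their 50-base words in another gene (11.9% to 86.4%), and in 7 the share was over 50%, so single values in this cluster are uncertain. Zfp982 had the smallest share, 11.9%, and Zfp978 had 77.4%.

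The other 6 clusters with at least 4 expressed genes had medians of 0.09 to 1.23 over the 12 libraries. The cluster with most expressed genes, on chromosome 17 (chr17:21008941-23599487), had 15 expressed of 23 Zfp genes, all with the KRAB pattern, and a two-cell median of 0.88, with 7 genes called higher and Zfp942 called lower. With median-of-ratios scaling the median was 0.29, with 2 called higher and 1 lower (all genes 26.6% and 12%). With spike-in scaling 12 were called higher and none lower (limma; all genes 81.4% and 0.478%). In NT and Am alone 2 were called higher and none lower (limma; all genes 10.7% and 2.47%). The 3 genes of this cluster with the highest four-cell level were Zfp820, Zfp51 and Zfp944. Zfp820 (1.41 ± 0.41, adjusted p = 0.0134) was higher without α-amanitin, a call lost with median-of-ratios scaling, and Zfp944 had −0.11 ± 0.60 (adjusted p = 0.883). Zfp942 had 9.77, 7.14 and 13.8 in NT and 8.09, 13.7 and 13.8 in Am, which overlap, and 5.40, 9.44 and 6.80 in R against 71.0, 75.8 and 58.9 in RAm (interaction −2.90, adjusted p = 0.000151). The second cluster on chromosome 17 (chr17:32771236-33631779, 8 of 11 expressed) had a median of 0.91 with 4 genes called higher. Zfp414, Zfp472 and Zfp871 were highest there at the four-cell stage. A cluster on chromosome 13 (chr13:67038596-67827002, 7 of 19 expressed) had a median of 0.09 and 2 genes called higher. The 84 genes in clusters had a median of 0.69 (37 called higher, 6 lower) and the 69 outside 1.10 (44 higher, 3 lower), where 46.7% and 5.81% of all genes were called. With median-of-ratios scaling 19 and 27 were called higher and 9 and 8 lower (all genes 26.6% and 12%). With spike-in scaling 66 and 60 were called higher and none lower (limma; all genes 81.4% and 0.478%). In NT and Am alone 7 and 7 were called higher and 2 and 0 lower (all genes 10.7% and 2.47%). The difference between genes in and outside clusters was not tested. The 92 genes with the KRAB pattern and the 61 without it had medians of 0.87 and 0.87.

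**Figure D4:**
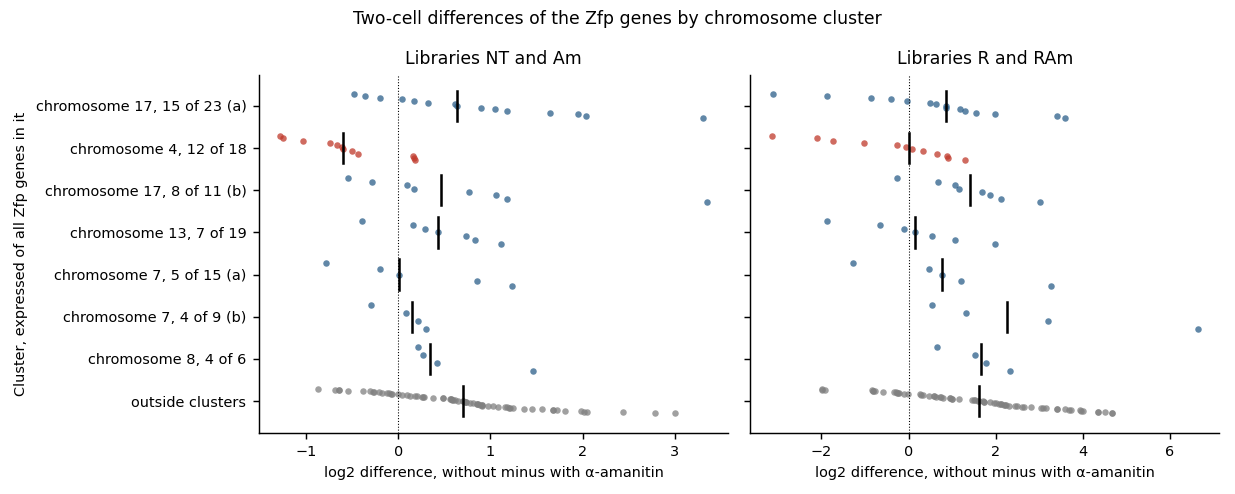
Points are the log2 differences (x axis, without minus with α-amanitin) of the expressed Zfp genes of the 7 clusters with most of them and of the genes outside clusters, in NT and Am (left) and in R and RAm (right); black bars are medians, and the axis labels give the number expressed of all Zfp genes in the cluster. In NT and Am the chromosome 4 cluster (red) has its median at −0.61, below 0.

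Zfp68 was the gene whose groups did not overlap in opposite directions at the 2 stages. The share of all genes with both patterns was not counted. Over all genes 27.6% lay higher without overlap in the four-cell libraries, and 2.48% lower in the two-cell libraries. In the four-cell libraries, which chose the genes, no Zfp gene lay lower in this way. In the four-cell libraries it had 6.78, 3.84 and 4.18 without and 2.31, 1.33 and 0.237 with α-amanitin. In the two-cell libraries it had 8.03, 8.80 and 9.38 in NT and 6.49, 8.54 and 9.59 in R, against 18.4, 14.6 and 11.7 in Am and 33.9, 46.3 and 27.9 in RAm (−1.34 ± 0.35, adjusted p = 0.00819). The difference between the stages was not tested, because the four-cell libraries chose the genes and the tables were normalised separately. With spike-in scaling the two-cell value was −0.02 and was not called. Zfp68 was also not called in NT and Am alone, as deposited or with median-of-ratios scaling.

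Among Zfp genes with known roles outside the KRAB family, 12 of a list of 13 with functions in RNA, ribosomes, ubiquitination or mitosis were expressed. In the two-cell libraries 8 of the 12 were higher without α-amanitin, 1 was lower and 3 were not called, with a median of 1.27 (all genes 46.7% higher, 5.81% lower, median 0.87). With median-of-ratios scaling 6 were called higher and 3 lower (all genes 26.6% and 12%), in NT and Am alone 3 were called higher (all genes 10.7%), and with spike-in scaling 10 were called higher and 0 lower (limma; all genes 81.4% and 0.478%). Besides Zfp622 and Zfp830, the 8 genes called higher over the 12 libraries were Zfp593, another ribosome assembly factor (2.28 ± 0.46, adjusted p = 0.00242), Zfp330, a nucleolar protein (1.92 ± 0.42), Zfp638 (1.71 ± 0.31), which works with the HUSH complex on unintegrated retroviral DNA, Zfp207 (1.51 ± 0.36), Zfp346, a binder of double-stranded RNA (1.03 ± 0.35), and Zfp598, the ubiquitin ligase of collided ribosomes (0.87 ± 0.23). With median-of-ratios scaling Zfp346 and Zfp598 were not called, and neither was Zfp346 without RAm1, RAm2, RAm3 or r1. Zfp593 had 10.6, 11.8 and 7.89 in NT and 8.57, 10.6 and 15.2 in R, against 4.01, 3.98 and 3.72 in Am and 0.304, 0.163 and 0 in RAm, without overlap. Zfp326, a subunit of the DBIRD splicing complex, was lower (−0.57 ± 0.19, adjusted p = 0.0230). Zfp706, Zfp91 and Zfp106 had 0.28 ± 0.37, −0.33 ± 0.25 and −0.56 ± 0.32 and were not called.

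Of 19 listed transcription regulators 7 were expressed, and 4 were higher without α-amanitin in the two-cell libraries, with a median of 1.20 (all genes 46.7%, median 0.87). In NT and Am alone 1 was called higher (all genes 10.7%), and with spike-in scaling 6 were (all genes 81.4%). Zfp143 (2.27 ± 0.61), Zfp263 (2.03 ± 0.25), Zfp131 (1.47 ± 0.31) and Zfp384 (0.61 ± 0.18) had adjusted p between 0.000142 and 0.0138, and Zfp131 was not called with median-of-ratios scaling. Zfp263, with 2.26, 3.72 and 2.65 in NT and 4.76, 7.18 and 4.07 in R against 0.282, 0.806 and 0.187 in Am and 0, 0.0251 and 0.0317 in RAm, separated all 12 libraries. Zfp148 (0.65 ± 0.32), Zfp410 (1.20 ± 0.56) and Zfp64 (−0.46 ± 0.35) were not called.

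Of 7 listed silencers of retroelements and imprinted genes 5 were expressed. Zfp809 (above), Zfp445, which maintains imprints (1.50 ± 0.35, adjusted p = 0.00512), and Zfp568, which represses a placental Igf2 transcript (1.03 ± 0.33, adjusted p = 0.0209), were higher without α-amanitin (3 of 5, all genes 46.7%). With median-of-ratios scaling Zfp568 had 0.34 and was not called. Of the 5 genes, 1 was called higher in NT and Am alone (all genes 10.7%), where Zfp445 (adjusted p = 0.0782) and Zfp568 (adjusted p = 0.243) were not, and with spike-in scaling 4 were called higher (all genes 81.4%). Zfp961 had −0.06 ± 0.35 (adjusted p = 0.892). Zfp932 had 19.2, 12.8 and 13.3 in NT and 10.4, 9.70 and 5.43 in Am, but 16.5, 32.0 and 34.8 in R and 108, 97.7 and 103 in RAm. It was above its α-amanitin group in NT and below it in R, with no overlap in either set, and the interaction was −2.70 (adjusted p = 0.000351). Its relatives share 37.0% of its 50-base words.

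Of 22 genes of the KRAB corepressor machinery 18 passed the same threshold, and 12 were higher without α-amanitin in the two-cell libraries and none lower (limma; all genes 46.7% and 5.81%). With median-of-ratios scaling 5 were called higher and 1 lower (all genes 26.6% and 12%), and with spike-in scaling all 18 were called higher (all genes 81.4%). In NT and Am alone 0 of the 18 were called by limma (2 at an unadjusted p under 0.05; all genes 10.7% higher), and in R and RAm alone 13 were called higher (all genes 63.9%). Trim28 had 1.50 ± 0.58 (adjusted p = 0.0441), Setdb1 1.26 ± 0.35 (adjusted p = 0.0108), Morc3, a reader of H3K4 methylation needed for silencing of endogenous retroviruses, 1.79 ± 0.41, and the HP1 genes Cbx3 and Cbx5 1.89 ± 0.41 and 1.26 ± 0.41. Chd4 (0.12 ± 0.32), Hdac2 (0.03 ± 0.27) and Dnmt1 (−0.31 ± 0.23) were not called in FPKM as deposited. The difference of Trim28 was −0.17 in NT and Am and 3.17 in R and RAm. Of other C2H2 families, 11 of 40 Zbtb genes and 7 of 27 Zscan and Zkscan genes passed the threshold, of which 7 and 6 were higher without α-amanitin and none lower (limma; all genes 46.7% and 5.81%), with medians of 1.34 and 1.27. In NT and Am alone 0 and 1 were called higher (limma; 5 and 2 at an unadjusted p under 0.05; all genes 10.7% higher), and with spike-in scaling 10 and 6 (all genes 81.4%).

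In the replication experiment no Zfp gene, and none of the 9884 genes fitted, differed between D and DR at an adjusted p under 0.05 (limma; 0% of all genes). At an unadjusted p under 0.05 there were 10 of the 153 Zfp genes and 672 of all genes. 52 Zfp genes were higher in DR (34.0%, all genes 55.1%), with a median DR minus D difference of −0.12 against 0.05 for all genes. The median FPKM over the Zfp genes was 8.41 in D and 7.31 in DR. The 3 genes with the smallest p were Zfp54, with 64.1, 16.5 and 22.5 in D and 4.80, 8.49 and 3.57 in DR (−2.24 ± 0.52, adjusted p = 0.715), Zfp472, with 23.1, 14.9 and 47.8 in D and 6.41, 10.1 and 5.82 in DR (−1.69 ± 0.43, adjusted p = 0.715), and Zfp85, with 1.66, 5.30 and 3.99 in D and 0.365, 1.35 and 0.326 in DR (−1.43 ± 0.40, adjusted p = 0.715). The groups did not overlap in these 3 genes, and none of the differences was called. Zfp622, Zfp296 and Zfp809, which led the two-cell list, had −0.09 ± 0.36, −0.17 ± 0.61 and −0.51 ± 0.36.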

How the data were processed

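RNA-seq tables of 24 mouse libraries were used. The 6 libraries with Oryx dammah cells were not used here, since their identifiers are not paired with gene names. The authors trimmed reads with Trimmomatic, Trim Galore and Cutadapt, mapped them to mm10 with STAR and deposited FPKM, scaled to the reads counted on genes (featureCounts is named in the submitters' processing notes). Times gene length, four-cell FPKM are whole reads. In the other tables only about 40.0% to 50.5% of values above 0 are whole to within 0.01 reads, so no count test was run, and 92 spike-ins share the denominator there. A further 4 library columns were not used. Per-library names follow the columns, which could be tied to single samples for DR only.

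Log2(FPKM + 1) was fitted with limma 3.58.1 (trend) in R 4.3.3, over the 9884 genes that reach an FPKM of 1 in 3 four-cell libraries (51 of them are not in the two-cell table), with Benjamini-Hochberg adjustment over all genes fitted. The fit was also run on simulated data, with noise scaled down from the observed spread and no difference between the sets. That run does not measure errors in the real libraries. Replicates are separate pools of embryos. In the replication fit and in the fits of a single two-cell set, errors cover the spread of these pools only. The two-cell fit over all its libraries had no term for set. Its errors (±) therefore also hold the difference between the sets, which cannot be told apart from stage and library batch.

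The genes, gene lists, clusters and tests were chosen with earlier results of these data known. Named were: the genes past both criteria in the two-cell fit (up to 10 in each direction), the 10 highest at the four-cell stage, all list members, those next to the threshold, up to 3 in each of 3 clusters, the 3 with the smallest p in the replication fit, and genes without overlap in opposite directions. Other called genes, Zfp410's interaction and the joined promoter letters were singled out after their values were seen. The KRAB pattern was widened after first results.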

Additional observations from a re-analysis of the deposited data

Results flagged for a closer look

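Of 48 groups of 6 two-cell libraries of 24 genes, 5 had a library far from the others. The chance rate of about 1 in 20 holds for 6 libraries of 1 kind. These groups mix both sets, which differed, so the count cannot be read against that rate. With α-amanitin, Zfp472 had 6.37 in RAm2, Zfp239 had 11.0 in Am1 and Zfp263 had 0.806 in Am2, and without it Zfp51 had 206 in NT1 and Zfp988 had 49.5 in r2, a library of group R.

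The α-amanitin difference differed between the 2 sets in 13 of 16 named genes past both criteria, and in 59 of all 153 (50% of all genes). The difference in R and RAm minus that in NT and Am (limma) was 1.89 for Zfp622 (adjusted p = 0.00536), 2.47 for Zfp821 (0.00934), 6.94 for Zfp977 (2.82e-07), 2.55 for Zfp707 (0.00352), 2.20 for Zfp830 (0.00578), 1.91 for Zfp637 (0.0490), 4.09 for Zfp239 (0.00211), 3.39 for Zfp143 (9.75e-05), 2.25 for Zfp593 (0.000498), 1.15 for Zfp263 (0.0209), 2.53 for Zfp54 (0.00603), −2.44 for Zfp51 (0.0456) and −1.89 for Zfp982 (0.00322). Among other genes given library by library it was 2.92 for Zfp410 (0.000132), 1.96 for Zfp988 (0.00409), −1.07 for Zfp979 (0.0136), −2.90 for Zfp942 (0.000151), −2.70 for Zfp932 (0.000351) and −1.31 for Zfp68 (0.0101). Zfp68 was higher without α-amanitin in the four-cell libraries and lower in the two-cell libraries (−1.34), a difference that was not tested.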

How the results depend on the processing

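In the two-cell fit the number higher without α-amanitin (81, all genes 46.7%) was 46 with median-of-ratios scaling (all genes 26.6%), 126 with spike-in scaling (81.4%), 14 in NT and Am alone (10.7%), and 51 (32.1%) and 13 (6.33%) with median-of-ratios scaling and set as a term or NT and Am alone. The number lower (9, all genes 5.81%) was 17 (12%), 0 (0.478%), 2 (2.47%), 23 (14.9%) and 3 (3.73%) in these fits, 3 without a filter (2.53%), 16 in R and RAm alone (9.23%) and 35 there with median-of-ratios scaling (19.2%). The number past both criteria (25, all genes 14.8%) was 57 with a pseudocount of 0.1 (all genes 28.8%), 11 with median-of-ratios scaling (6.27%; also with set as a term, 6.58%), 62 with spike-in scaling (44.8%), 7 in NT and Am (2.54%), 6 there with median-of-ratios scaling (1.72%), and 46 in R and RAm (36.4%). The fits by set were chosen after seeing the data. Leaving out single libraries gave 61 to 79 higher, 4 to 10 lower (5, 4 and 5 without RAm1, RAm2 and RAm3) and 18 to 32 past both criteria, 0 in the replication fit, and 45 to 53 genes at least 4-fold higher in the four-cell description (47 with all libraries, and 92 with a pseudocount of 0.1). Requiring an FPKM of at least 1 in all 6 libraries leaves 39 genes.

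Of 39 named and called genes, 5 kept their call in all 23 alternatives (Zfp622, Zfp296, Zfp809, Zfp830 and Zfp263) and 6 changed sign in an alternative: Zfp977 in NT and Am alone (−0.30, or −0.53 with median-of-ratios scaling), Zfp820 and Zfp51 in R and RAm with median-of-ratios scaling (−0.21 and −0.49), as did Zfp12 (−0.0024), and Zfp326 and Zfp84 with spike-in scaling (0.042 and 0.033). Zfp977 also lost its call without each of the R and RAm libraries. The cause was not tested. Spike-in scaling of the replication table moved the median of all genes to −1.41, with factors of 0.0937 to 5.60, and limma called no gene (29 at an unadjusted p under 0.05). edgeR was not run, since values are not whole reads in the tested tables. No paired analysis was possible because the four-cell and two-cell columns could not be tied to single samples, and D and DR share only the number 1.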
